A study of Homo sapiens with 20 samples.

Results

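The genes described here are 10 members of the calcineurin and NFAT pathway together with RUNX2, taken by symbol from an expression table of 24196 genes. They are the calcineurin catalytic subunit genes PPP3CA and PPP3CB, the regulatory subunit gene PPP3R1, the inhibitor gene RCAN1, the transcription factor genes NFATC1, NFATC2, NFATC3, NFATC4 and NFAT5, and RUNX2. All 10 had a row in the table. They were taken by name, without a threshold on any value, but with earlier results of these data known. The table covers 8 polyA RNA-seq libraries of orthotopic tumors of OVCAR8, a human ovarian cancer cell line grown in immunodeficient NSG mice. Mice received PBS as the vehicle (4 libraries) or sodium gluconate (4 libraries), and both groups carry the same cells. By the study's methods these cells were tagged with luciferase and placed in the ovarian fat pad. A figure legend of the study names the cells of the PBS and gluconate tumors as carrying the control guide, sgNC. The labels of the tumor libraries name no guide. The study's text calls this comparison one of treated cells, while the labels, which are used here, name tumors. The columns carry the letters C and T, read as control and treatment, and every direction below rests on that reading. The other 12 labelled libraries are OVCAR8 cultures with a CHP1 or TMEM87A knockout or a control guide and were not analysed here.

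Calcineurin is a phosphatase made of a catalytic A subunit and a regulatory B subunit, switched on by calcium and calmodulin. It removes phosphates from NFATC1 to NFATC4, which then enter the nucleus and bind the DNA core GGAAA, whereas NFAT5 responds to tonicity and lacks the calcineurin docking region. RCAN1 inhibits calcineurin and has an internal start that NFAT itself drives, and RUNX2 is a DNA-binding factor of the bone lineage that is also expressed in some carcinomas. CHP1, the protein the study is built on, is a homolog of the B subunit.

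Values are FPKM, the fragments of a gene per kilobase of its length and scaled by the fragments of the library, so levels can be set beside each other between genes. The depth behind a library was recovered from the steps in its FPKM values. It was 3953206 fragments in PBS replicate 4 and 39325749 to 46551535 in the other 7 libraries. PBS replicate 4 had 15514 genes above 0, against 19991 to 20251. Ovarian epithelial markers were present, with KRT8 at 700 to 1051 FPKM, PAX8 at 32.4 to 50.7 and MSLN at 103 to 171, while KRT19, MUC16 and CDH1 were at 0.159 or less. Lymphocyte genes outside IL7R were at 0.587 FPKM or less. The bone genes SP7, BGLAP and DMP1 of the osteoblast list were under 0.1 FPKM in every library. Of the 5 osteoblast genes in the table, the other two were ALPL, at 0.269 to 1.94 FPKM, and SPP1, at 0.0123 to 0.145. In PBS replicate 4 the summed FPKM of the fibroblast list, nearly all COL1A1, was 45.3 against 130 to 192 in the other 7 libraries. The fibroblast genes COL1A2, DCN and PDGFRA were at 0.0678 FPKM or less in every library. COL3A1, LUM, PDGFRB and FAP reached 2.25, 5.18, 3.41 and 3.34 FPKM. PBS replicate 4 also had the lowest sums for B lymphocyte (0.349 against 0.575 to 1.06), osteoblast (0.413 against 0.833 to 1.95), endothelial (0.257 against 0.454 to 0.707) and neuron markers (7.08 against 7.13 to 9.64), of 10 lists in all. For comparison, 58.0% of all genes tested had their lowest value in this library. Single markers went both ways there, with EPCAM at 10.3 against 15.7 to 22.3 FPKM, WT1 at 6.58 against 1.07 to 1.82 and MAP2 at 0.348 against 0.0469 to 0.0785. Of the endothelial genes, CDH5 and CLDN5 were at 0.0301 FPKM or less in every library, while PECAM1 reached 0.563. The marker sums were not read as numbers of cells of these types. In bulk tumors, fewer cells of a type and less RNA per cell cannot be told apart, and how reads of mouse cells were handled is not given in the sources used here.

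NFAT and RUNX motifs were searched on both strands in the 250 bases before each start that RefSeq (GRCh38.p14) lists. Entries were found for 7 of the 10 members, with 17 starts, and NFAT5, PPP3CA and PPP3CB had none. The motifs were GGAAA for NFAT and TGTGGT for RUNX, and no matches of one overlapped the other. RCAN1, on the minus strand of chromosome 21, had 6 listed starts, and the matches were all before the fourth. That window held 4 NFAT cores, at 234, 199, 169 and 64 bases before the start, a number reached by 1.87% of the 35116 promoters of the same length. The window before its first start, the farthest upstream, held 0. NFATC2 (minus strand, chromosome 20) had 3 NFAT cores before its first start, reached by 7.12% of promoters. RUNX2 (plus strand, chromosome 6) had 2 NFAT and 2 RUNX cores before its first start, numbers reached by 22.4% and 0.971% of promoters, and neither motif before its second. Single NFAT cores, which 55.6% of promoters reach, stood before the only listed start of PPP3R1, both starts of NFATC1 and the first of NFATC4. Single RUNX cores, which 11.0% reach, stood before the second start of NFATC2 and the third of NFATC4. NFATC3 had neither motif. The stretches of these windows outside annotated exons (GENCODE 29) are shown to let the spacing of the cores be seen, 5′ to 3′ along the gene's strand, with the cores of either strand in capitals. Cores that lie in exons, as for RCAN1 and RUNX2, are therefore counted above but not printed.
RCAN1 before the fourth start, chr21:34526964-34527072: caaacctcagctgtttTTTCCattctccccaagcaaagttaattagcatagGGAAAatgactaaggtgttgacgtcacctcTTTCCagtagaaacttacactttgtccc
RCAN1 before the first start, chr21:34615143-34615363: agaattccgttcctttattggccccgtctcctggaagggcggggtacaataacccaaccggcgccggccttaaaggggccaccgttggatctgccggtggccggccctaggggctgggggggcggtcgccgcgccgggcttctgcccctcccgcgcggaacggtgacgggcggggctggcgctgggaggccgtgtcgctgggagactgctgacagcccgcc
NFATC2 before the first start, chr20:51562840-51563089: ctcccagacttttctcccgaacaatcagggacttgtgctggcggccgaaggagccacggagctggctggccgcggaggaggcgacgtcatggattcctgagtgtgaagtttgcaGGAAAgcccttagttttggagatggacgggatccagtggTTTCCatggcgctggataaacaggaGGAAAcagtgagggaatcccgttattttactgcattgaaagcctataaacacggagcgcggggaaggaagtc
RUNX2 before the first start, chr6:45328080-45328156: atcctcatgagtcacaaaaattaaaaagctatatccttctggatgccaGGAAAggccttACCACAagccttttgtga
A match describes letters only. The FPKM of a gene pools the transcripts of all its starts, so the starts of RCAN1 and of RUNX2 cannot be read apart in this table.

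By its mean over the 8 libraries the regulatory subunit was the most abundant of the members and NFATC2 the least, while in PBS replicate 4 PPP3CB was above PPP3R1. By mean log2(FPKM + 0.1) the order was PPP3R1, PPP3CA, PPP3CB, NFAT5, NFATC3, RCAN1, NFATC4, NFATC1, RUNX2 and NFATC2. In the 7 libraries other than PBS replicate 4, the mean FPKM of PPP3R1 was 70.8 times that of NFATC2. Neighbours in this order were compared within libraries with a two-sided exact sign-flip test, adjusted over the 9 pairs. With all 8 libraries, 5 pairs differed, among them PPP3R1 above PPP3CA in 8 of 8 libraries (adjusted p = 0.0176, exact). PPP3CA and PPP3CB (adjusted p = 0.688), PPP3CB and NFAT5 (0.231), RCAN1 and NFATC4 (0.0938), and NFATC1 and RUNX2 (0.688) did not differ beyond their spread by the exact test. Without PBS replicate 4, 7 pairs differed, and PPP3CB with NFAT5 (adjusted p = 0.359, exact) and NFATC1 with RUNX2 (0.176) did not. PPP3CA was then 0.43 ± 0.11 log2 units above PPP3CB (SD, n = 7).

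**Figure D1:**
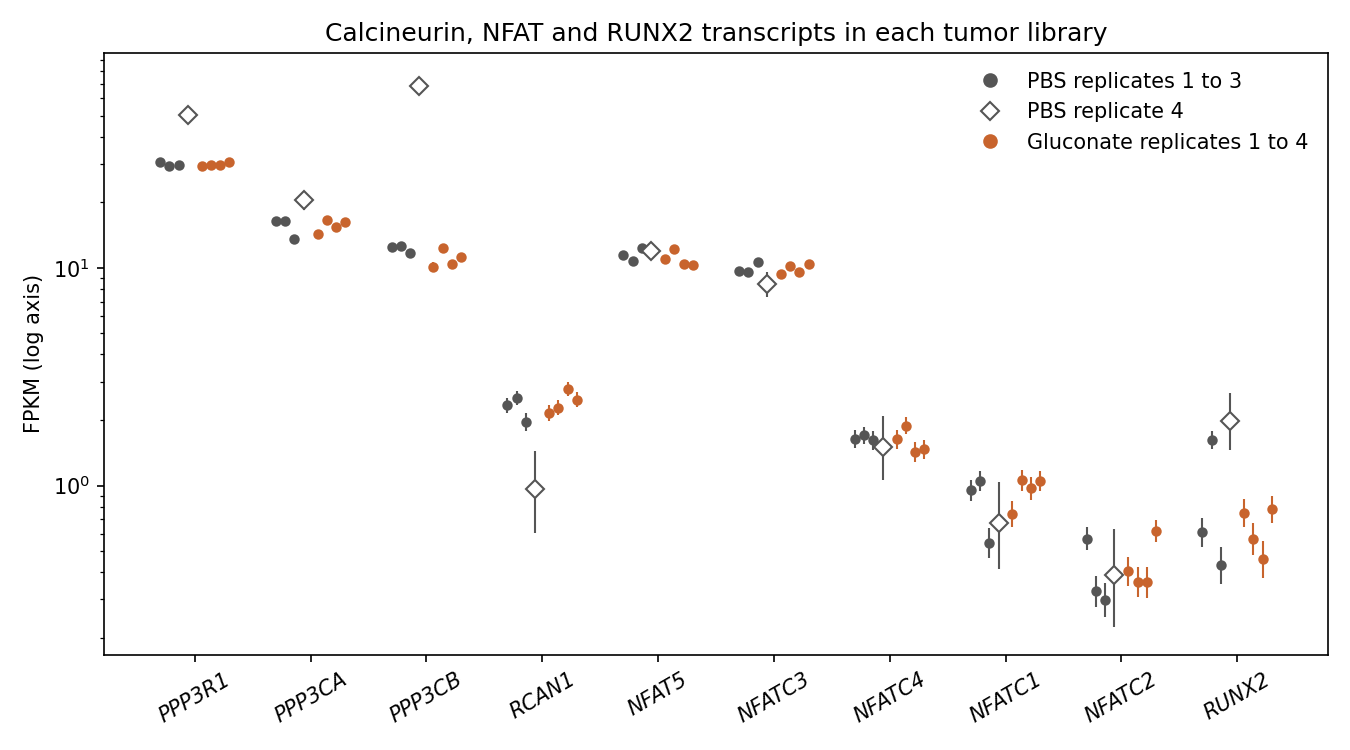
FPKM of the 10 members in each library on a log axis, with 95% Poisson intervals that cover counting error only. The open diamonds of PBS replicate 4 lie far from the other 7 libraries for PPP3CB (68.7 FPKM against 10.1 to 12.6), PPP3R1 and RCAN1, while the PBS and gluconate values overlap for every member.

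Gluconate and PBS tumors were compared to see whether transcripts of this pathway moved with treatment. The groups overlapped for each of the 10 members, and no member passed the test. Differences were tested with limma on log2(FPKM + 0.1) for the 12486 genes whose FPKM averaged 0.5 or more, which included 9 members. NFATC2 averaged less. None of the 9 had an unadjusted p under 0.05, where 4.62% of all genes tested had one (0 of 9 and 6.21% without PBS replicate 4), and their adjusted p values lay between 0.740 and 0.977. Over all genes, limma with Benjamini-Hochberg adjustment called 0 genes, or 0.0%, at an adjusted p under 0.05, and 577 genes had an unadjusted p under 0.05. Groups that did not overlap were found for 3.49% of genes tested and for 0 of the 9 members, and without PBS replicate 4 for 6.06% of genes and again for 0 members. The median log2 fold change of the 9 members was -0.08, beside 0.07 over all genes tested, and without PBS replicate 4 both were near 0, at -0.01 and 0.00. By the two-sided exact permutation test of single genes, which cannot give a p under 0.0286, the smallest p of a member was 0.0571, for PPP3CB. The tumor arms held as many mice as there are libraries in a group, but the sources used here do not tie each library to its own mouse, so p values measure the spread between these libraries.

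The catalytic subunit gene PPP3CB (chr10:73436428-73496024, minus strand) gave the widest range of the members in PBS tumors. It was at 12.5, 12.6, 11.7 and 68.7 FPKM in PBS replicates 1 to 4, and at 10.1, 12.3, 10.4 and 11.2 FPKM in gluconate replicates 1 to 4. PBS replicate 4 thus stood 5.46 times above the highest of the other 7 libraries, while those 7 lay within 1.24 times of each other. Its value rests on 1257 fragments (95% Poisson interval 64.9 to 72.6 FPKM). An excess of at least 4 times in this library was found for 0.793% of genes tested, and PPP3CB ranked 66 of 12486. Gluconate over PBS gave a log2 fold change of -0.77 (SE 0.50, 95% interval -1.90 to 0.35, limma adjusted p = 0.740). Without PBS replicate 4 it was -0.15 (SE 0.08, interval -0.34 to 0.03, adjusted p = 0.813). The antisense gene PPP3CB-AS1, which shares 13 exon bases with it, was at 0.409 FPKM in PBS replicate 4 and at 0.923 to 1.44 in the others. That library was the lowest for 58.0% of all genes tested, and a relation between the 2 genes was not tested.

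PPP3CA, the other main catalytic subunit gene (chr4:101023409-101348278, minus strand), varied far less. It was at 16.4, 16.4, 13.6 and 20.5 FPKM in PBS and at 14.3, 16.6, 15.4 and 16.2 FPKM in gluconate tumors. PBS replicate 4 was again the highest library and PBS replicate 3 the lowest, with all gluconate values between them. Its log2 fold change was -0.08 (SE 0.12, interval -0.36 to 0.19), which bounds the ratio of gluconate to PBS to 0.781 to 1.14. Without PBS replicate 4 it was 0.02 (SE 0.09).

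PPP3R1, the calcium-binding B subunit gene (chr2:68178857-68256237, minus strand), was the steadiest of the members outside PBS replicate 4. PBS tumors had 30.5, 29.3, 29.6 and 50.4 FPKM, and gluconate tumors had 29.3, 29.7, 29.8 and 30.5 FPKM. The 7 other libraries spanned 1.04 times (CV 1.72%), and PBS replicate 4, with 603 fragments, was 1.65 times above the highest of them. An excess of at least 1.5 times in that library was found for 4.43% of genes tested. With all libraries the log2 fold change was -0.19 (SE 0.16) and without PBS replicate 4 it was 0.00 (SE 0.06, interval -0.12 to 0.13). PPP3R1 shares 462 exon bases with AC017083.3 on its own strand, so part of its fragments could be assigned elsewhere under another counting.

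RCAN1 (chr21:34513142-34615142, minus strand), the feedback inhibitor, went the other way in PBS replicate 4. It was at 2.34, 2.52, 1.96 and 0.960 FPKM in PBS tumors and at 2.16, 2.28, 2.77 and 2.48 FPKM in gluconate tumors. PBS replicate 4 held 23 fragments, and its Poisson interval of 0.609 to 1.44 FPKM ended below the lowest other library. A level 2-fold or more below the lowest other library was found in it for 6.33% of genes tested. Its log2 fold change was 0.38 (SE 0.27, interval -0.22 to 0.98, limma adjusted p = 0.740), and 0.09 (SE 0.13, interval -0.19 to 0.37) without PBS replicate 4.

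**Figure D2:**
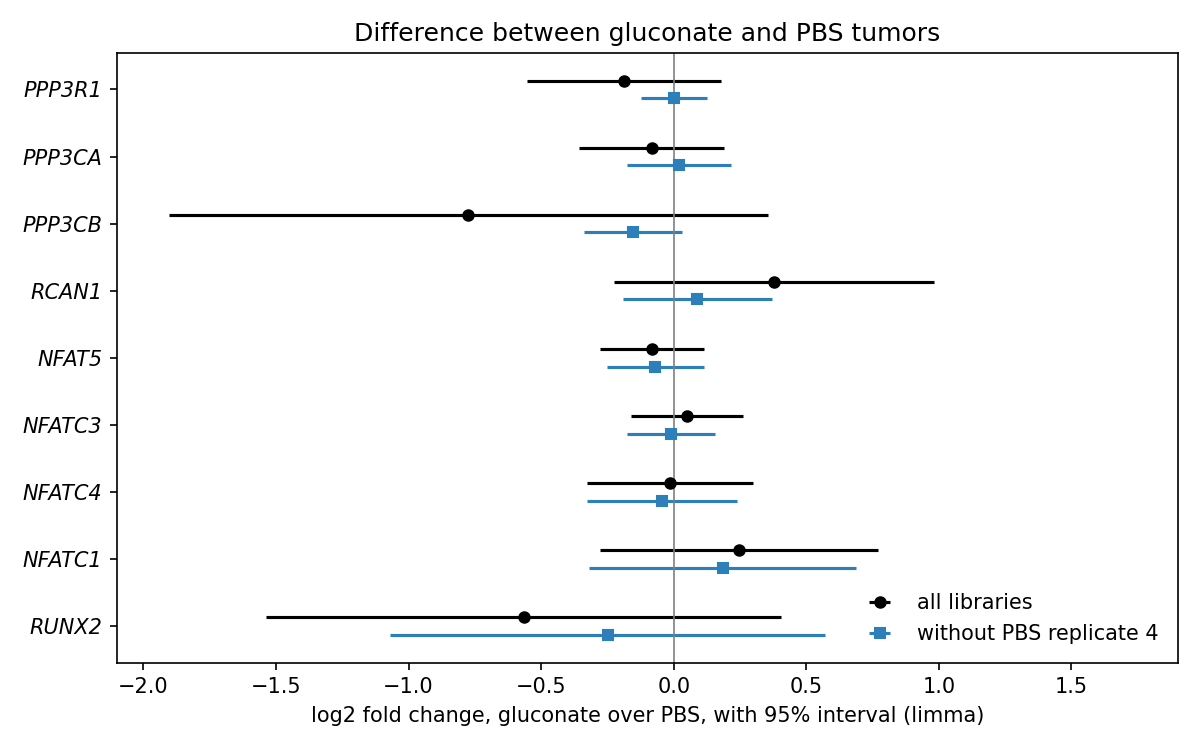
Log2 fold change of gluconate over PBS with its 95% interval from limma for the 9 members tested, with all libraries (black circles) and without PBS replicate 4 (blue squares). Every interval covers 0, and that of PPP3CB shrinks from -1.90 to 0.35 to -0.34 to 0.03 once PBS replicate 4 is left out.

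Among the calcium-regulated NFAT genes, NFATC3 (chr16:68084751-68229259, plus strand) carried most of the transcript. It was at 9.65, 9.59, 10.7 and 8.42 FPKM in PBS tumors and at 9.35, 10.2, 9.60 and 10.5 FPKM in gluconate tumors. The 7 libraries other than PBS replicate 4 stayed within 1.14 times, and PBS replicate 4, at 217 fragments, was the lowest. The log2 fold change was 0.05 (SE 0.09, interval -0.16 to 0.26), and it turned to -0.01 (SE 0.07) without PBS replicate 4 and to -0.02 under median ratio scaling. NFATC3 shares 2796 exon bases with the antisense gene AC020978.5, and whether counting used strand is not given in the sources used here.

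NFATC4 (chr14:24365673-24379604, plus strand) was at 1.64, 1.70, 1.61 and 1.51 FPKM in PBS and at 1.63, 1.88, 1.43 and 1.47 FPKM in gluconate tumors. The PBS values lay inside the gluconate range, and the log2 fold change was -0.01 (SE 0.14). The study followed NFATC1 protein in CHP1-deleted cells. NFATC1 (chr18:79395856-79529325, plus strand) was at 0.955, 1.05, 0.546 and 0.676 FPKM in PBS and at 0.742, 1.06, 0.971 and 1.05 FPKM in gluconate tumors. PBS replicates 3 and 4 were the lowest libraries and PBS replicates 1 and 2 lay among the gluconate values. Its log2 fold change was 0.25 (SE 0.23), with an interval that allows ratios of gluconate to PBS from 0.825 to 1.71. It ranged from 0.10 without PBS replicate 3 to 0.37 without PBS replicate 2. The value of PBS replicate 4 rests on 20 fragments.

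NFATC2 (chr20:51386957-51562831, minus strand), a form best known from T lymphocytes, was the lowest member. It was at 0.571, 0.328, 0.300 and 0.391 FPKM in PBS and at 0.404, 0.361, 0.361 and 0.621 FPKM in gluconate tumors. A library of each group, PBS replicate 1 and gluconate replicate 4, stood above the rest of its group. With no filter on low values, limma gave a log2 fold change of 0.11 (SE 0.26, adjusted p = 0.886).

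NFAT5 (chr16:69565094-69704666, plus strand), the tonicity-responsive member, was at 11.4, 10.8, 12.3 and 12.0 FPKM in PBS and at 10.9, 12.2, 10.5 and 10.3 FPKM in gluconate tumors. Gluconate replicate 2 lay among the highest PBS values and the other 3 gluconate libraries near or below the lowest PBS value. The log2 fold change was -0.08 (SE 0.09, interval -0.28 to 0.11) and -0.07 (SE 0.08) without PBS replicate 4. Leaving out 1 library each, it ranged from -0.13 without gluconate replicate 2 to -0.055 without PBS replicate 3. NFAT5 and NFATC3 were near each other in level, with NFAT5 higher in 7 of 8 libraries (adjusted p = 0.0281, exact sign-flip test).

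RUNX2 (chr6:45328157-45664349, plus strand) had the most uneven values of the members once PBS replicate 4 was set aside. PBS tumors had 0.610, 1.62, 0.432 and 1.99 FPKM, and gluconate tumors had 0.749, 0.571, 0.460 and 0.783 FPKM. PBS replicates 2 and 4 were above all gluconate tumors and PBS replicate 3 was below them. The value of PBS replicate 2 rests on 441 fragments and that of PBS replicate 4 on 46 (interval 1.45 to 2.65 FPKM). The CV over the 7 libraries other than PBS replicate 4 was 54.4%, against 1.72% to 29.7% for the other members. Gluconate over PBS gave a log2 fold change of -0.57 (SE 0.43, interval -1.54 to 0.40, limma adjusted p = 0.740), and -0.25 (SE 0.37) without PBS replicate 4. Leaving out PBS replicate 3 gave -0.91 with an unadjusted limma p of 0.0428, in a fit where 501 of 12458 genes had one under 0.05.

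The makeup of the catalytic subunits was compared within libraries, which does not depend on library scaling. With PPP3CC, the third catalytic gene, in the sum, PPP3CA held 50.3%, 51.5%, 44.6% and 22.1% of catalytic FPKM in PBS replicates 1 to 4, and 51.0%, 51.6%, 53.0% and 51.7% in gluconate replicates 1 to 4. The gluconate tumors spanned 51.0% to 53.0%, and PBS replicates 1, 3 and 4 were below all of them while PBS replicate 2 lay among them. The difference of 9.72 points had p = 0.0571 in the two-sided exact permutation test (0.171 adjusted over the 3 within-library tests), and 3.04 points with p = 0.0571 in the exact test without PBS replicate 4. PPP3CB held 38.3%, 39.6%, 38.2% and 74.1% in PBS and 36.1%, 38.2%, 35.8% and 35.9% in gluconate tumors. All PBS libraries were thus at or above the gluconate tumors, though PBS replicate 3 at 38.20% and gluconate replicate 2 at 38.18% are close to equal, and this share was picked after its values were seen and is given with no test. Summed catalytic FPKM per PPP3R1 FPKM was 1.84 in PBS replicate 4 and 0.958 to 1.09 in the others.

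The makeup of the NFAT family was more even. NFATC3 held 75.3%, 75.7%, 81.3% and 76.6% of the NFATC1 to NFATC4 sum in PBS and 77.1%, 75.5%, 77.7% and 76.9% in gluconate tumors. PBS replicate 3 was the highest and the other PBS libraries lay among or just below the gluconate tumors (difference -0.44 points, exact permutation p = 0.943, adjusted 0.943). NFATC4 followed with 10.8% to 14.0%, NFATC1 with 4.15% to 8.29% and NFATC2 with 2.28% to 4.56%. PBS replicate 4 did not stand apart in this family as it did in the catalytic subunits. RCAN1 amounted to 7.20%, 7.93%, 6.41% and 1.04% of catalytic FPKM in PBS and to 7.70%, 7.07%, 9.57% and 7.93% in gluconate tumors. PBS replicate 4 was far below, and the other 7 libraries overlapped. On the log2 scale the difference was 0.86 (exact permutation p = 0.171, adjusted 0.257), and 0.16 (p = 0.314 in the exact test) without PBS replicate 4.

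PBS replicate 4 was the highest of the 8 libraries for 4 of the 9 tested members, PPP3CA, PPP3CB, PPP3R1 and RUNX2, where 13.7% of all genes tested had their highest value there. It was the lowest for 2 of 9, NFATC3 and RCAN1, against 58.0% of all genes. The pathway lists, 117 genes in 10 lists with 86 tested, gave 19 genes highest and 35 lowest in this library. The 11 genes named next were chosen after their values were seen. MEF2C, a calcineurin-dependent transcription factor gene, was at 7.39 FPKM there and at 0.210 to 0.933 in the others. DYRK1A, a kinase gene that acts against NFAT nuclear entry, was at 7.39 against 2.15 to 2.94 FPKM, and the calcium channel gene ITPR1 was at 4.49 against 1.58 to 2.00 FPKM. The corepressor gene TLE1 was at 19.0 against 7.44 to 8.34 FPKM and BMP2 at 2.00 against 0.219 to 0.656 FPKM. TFEB, a lysosomal factor gene and calcineurin substrate, had 1 fragment there, at 0.0694 FPKM, against 0.570 to 1.03 in the others. Of the RUNX2 targets, ALPL was at 0.269 against 0.787 to 1.94 FPKM, on 3 fragments, COL1A1 at 41.4 against 121 to 182 and FGFR3 at 1.19 against 2.08 to 3.10, and MMP9 was also below the others. BMP2 and VEGFA, at 9.46 against 7.28 to 8.52 FPKM, were above the others, so 2 of the 7 tested targets were highest and 4 lowest there. Low depth, low sums of several marker lists and 6 members outside the range of the other libraries, 4 above and 2 below, came together in this 1 library. So did the lowest value of 58.0% of all genes tested. Over all genes tested, PBS replicate 4 was at a median of 0.819 times the median of the other 7 libraries. NFATC3, counted as below, was at 0.872 times. NFATC1, NFATC2, NFATC4 and NFAT5 were inside the range of the other libraries. The part of depth and of the markers in these values was not tested.

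**Figure D3:**
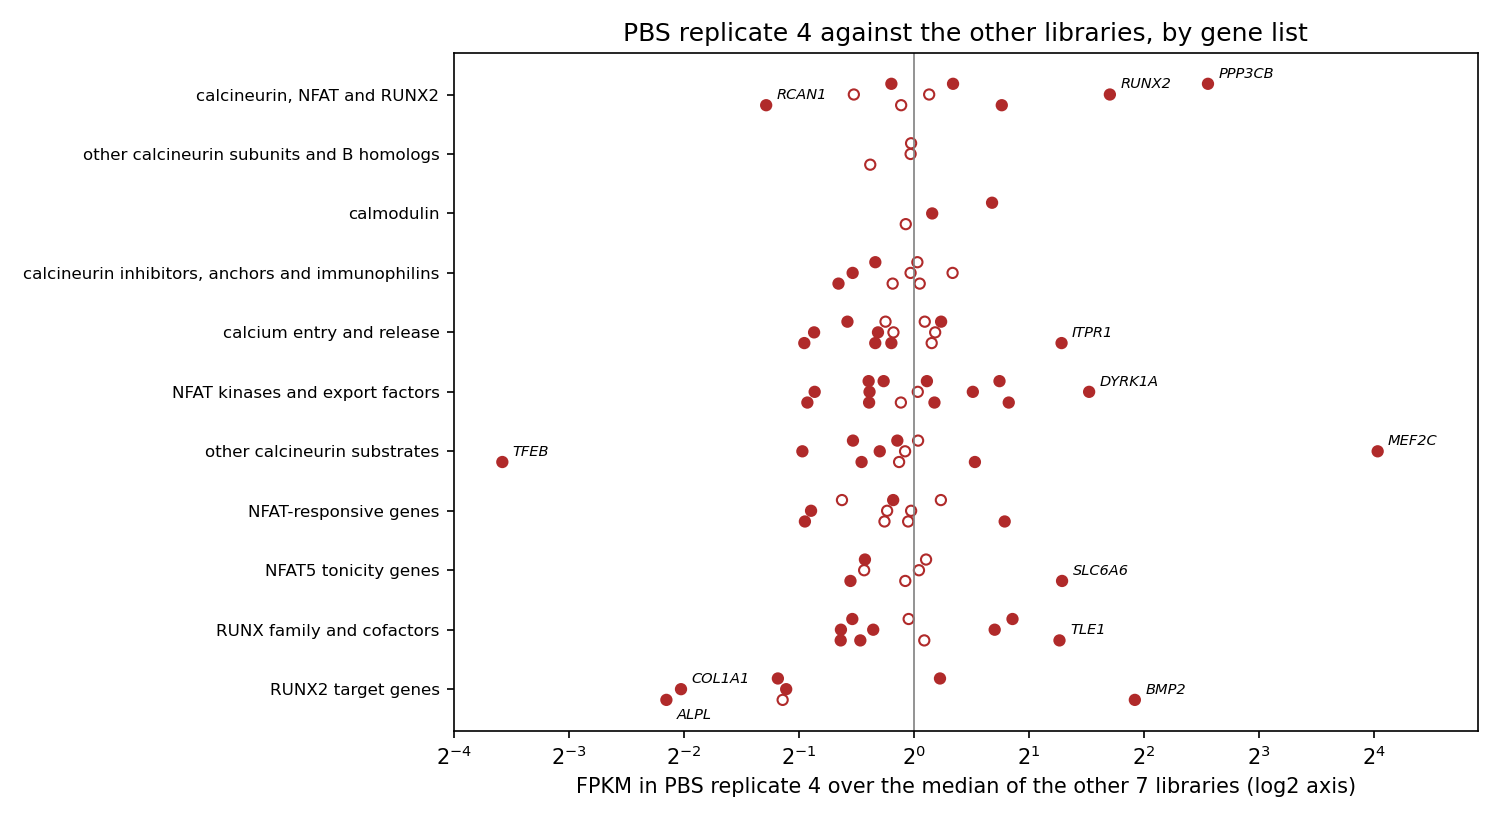
FPKM of PBS replicate 4 over the median of the other 7 libraries, on a log2 axis, for each tested gene of the member list and the pathway lists; filled points lie outside the range of the other 7. PPP3CB and MEF2C lie farthest to the right (5.88 and 16.4 times) and TFEB farthest to the left. The median of this ratio over all genes tested was 0.819.

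In the pathway lists, 2 of 86 tested genes had an unadjusted p under 0.05 (4.62% of all genes tested) and 0 an adjusted one, with 47 higher and 39 lower in gluconate tumors. HSPA1B, a heat shock gene among the tonicity genes that NFAT5 acts on, was at 109, 123, 108 and 102 FPKM in PBS and at 87.9, 77.3, 95.01 and 99.4 FPKM in gluconate tumors. Every gluconate value was below every PBS value. The log2 fold change was -0.30 (SE 0.09, limma unadjusted p = 0.0107, adjusted p = 0.740), and the other 6 tested tonicity genes had no such p (median of all 7 -0.07, and -0.14 without PBS replicate 4). HSPA1B has a near-identical copy, so its fragments could be split under another counting. IL6, a cytokine gene among the NFAT-responsive genes, was at 12.1, 8.74, 5.92 and 5.37 FPKM in PBS and at 9.32, 12.0, 9.99 and 16.4 FPKM in gluconate tumors. PBS replicate 1 lay among the gluconate values. Its log2 fold change was 0.60 (SE 0.27, limma unadjusted p = 0.0480, adjusted p = 0.740), with 0.44 and an unadjusted p of 0.102 without PBS replicate 4. The other 9 tested NFAT-responsive genes had no p under 0.05, and the median of all 10 was -0.03, and -0.12 without PBS replicate 4.

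The remaining lists had 0 genes at an unadjusted p under 0.05, and the gene with the lowest p in each direction is named for most of them. Of 3 other subunits and B homologs, CHP1 was at 24.2 ± 0.384 FPKM in PBS and 26.1 ± 1.53 FPKM in gluconate tumors (SD, n = 4 each), a log2 fold change of 0.10 (SE 0.07, limma adjusted p = 0.740), and PPP3CC was at -0.10. Its PBS range of 23.8 to 24.7 FPKM overlapped the gluconate range of 24.4 to 28.1 FPKM. CHP1 per PPP3R1 was 0.479 in PBS replicate 4 and 0.779 to 0.921 in the others. Among the calmodulin genes CALM2 had -0.16, and 0.02 without PBS replicate 4. Of 8 inhibitor, anchor and immunophilin genes, AKAP5 had 0.24 and FKBP1A, the FK506-binding protein gene, -0.08. Calcium entry and release, with 13 tested genes, had ORAI3 at 0.35 and ITPR3 at -0.17, and TMEM87A, the channel gene the study ties to gluconate, at 0.15 (SE 0.10). Among 14 NFAT kinases and export factors MAPK14 had 0.12 and MAPK8, the JNK1 gene, -0.30. Without PBS replicate 4 AKAP5 had 0.12, ORAI3 0.16, MAPK14 0.06 and MAPK8 -0.15. Of 11 other substrates TFEB had 0.71 and MEF2C -1.25, and without PBS replicate 4 they had 0.12 and -0.37. Of 10 RUNX family and cofactor genes WWTR1 had 0.19 and TLE3 -0.35, and without PBS replicate 4 they had 0.04 and -0.17. Of 7 RUNX2 targets COL1A1 had 0.69 and BMP2 -0.36. Without PBS replicate 4 COL1A1 had 0.24, BMP2 fell under the level for testing, and the median of the list went from 0.19 to -0.02. In this list the bone genes SP7, BGLAP and SOST were at or near 0. GPC6 and WNT5A, which the study places downstream, had log2 fold changes of -0.06 (SE 0.26) and 0.29 (SE 0.17). Without PBS replicate 4 that of GPC6 turned to 0.13 (SE 0.21) and that of WNT5A was 0.26 (SE 0.16). All these values are log2 fold changes of gluconate over PBS from limma.

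With PBS replicate 4 set aside, the genes most like RCAN1, RUNX2 and each tested NFAT member over the other 7 libraries were found by Pearson's r of log2(FPKM + 0.1) among the 12485 other genes tested. With so many genes and 7 libraries, high values of r are common, and they are a description only. For RCAN1 these were ZBTB42 (r = 0.98, and 0.97 over all 8 libraries) and ABCA3 (0.97 and 0.76). For RUNX2 they were GATA2 (0.98 and 0.90) and LRRC8D (0.98 and 0.37). For NFATC1 they were NLRC5 (0.995 and 0.89) and DUSP8 (0.99 and 0.89), and for NFAT5 TRIP4 (0.99 and 0.40) and SETD9 (0.98 and 0.05). NFATC3 was closest to CARMIL2 (0.99 and 0.59) and SCNN1D (0.98 and 0.95), and NFATC4 to RTN4IP1 (0.99 and 0.66) and HMGN5 (0.99 and 0.60). Among the members themselves, r between PPP3CB and PPP3R1 was 0.99 over 8 libraries and 0.19 over 7, and r between PPP3CB and RCAN1 was -0.94 over 8 and -0.11 over 7. Those relations rest on PBS replicate 4. Other pairs went the opposite way, with r between NFATC1 and PPP3CA at 0.95 over 7 and 0.20 over 8, and r between NFATC2 and PPP3R1 at 0.84 over 7 and 0.01 over 8. These pairs were picked after their values were seen.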

How the data were processed

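PolyA RNA-seq was read from 8 tumor libraries, 4 per group. The authors deposited FPKM values, 1 column per library, for 24196 genes, and the labels name GRCh38. The aligner, counting, annotation and filters are not given in the sources used here. From the steps of the FPKM values, whole fragments were recovered for all genes (tolerance 0.0001), with 3953206 to 46551535 fragments per library. Poisson intervals (95%) cover counting error only. Groups were compared with limma 3.58.1 in R 4.3.3 (lmFit, eBayes with trend) on log2(FPKM + 0.1), which understates changes of low genes, for genes whose FPKM averaged 0.5 or more, with Benjamini-Hochberg adjustment. Single genes and shares were compared with exact tests in Python 3.11.15 with numpy 2.4.6, scipy 1.17.1 and pandas 2.3.3, and figures used matplotlib 3.10.9. Gene positions are from GENCODE 29. The fit was tested on simulated data. Alternatives were other pseudocounts (1 and 0.01), filters and scalings, limma's voom on recovered fragments, a block by replicate number and fits with 1 library left out.

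The members and lists were chosen with earlier results of these data known. Named genes were the members, CHP1, TMEM87A, GPC6, WNT5A, every list gene at an unadjusted p under 0.05 and otherwise the lowest p per direction, and the 2 genes most like RCAN1, RUNX2 and each tested NFAT member. 1 gene that falls under this rule is not reported here. Epithelial, lymphocyte, myeloid, osteoblast, osteoclast, fibroblast, endothelial, muscle and neuronal markers were also listed.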

Additional observations from a re-analysis of the deposited data

Results flagged for a closer look

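In 44 groups of 4 values, covering the members and their shares and ratios, 8 held a library whose gap to the nearest other was a large part of the group's range by Dixon's criterion, which chance passes in about 1 of 20 groups. PBS replicate 4 was that library in 5 of them. These were PPP3CB at 68.7 FPKM (the other PBS libraries 11.7 to 12.6), PPP3R1 at 50.4 FPKM (29.3 to 30.5), the PPP3CB share of catalytic FPKM at 74.1% (38.2% to 39.6%), catalytic FPKM per PPP3R1 FPKM at 1.84 (1.03 to 1.09) and summed catalytic FPKM at 92.7 (30.6 to 32.5). Apart from PPP3R1 they share the PPP3CB value. In gluconate tumors, NFATC2 in replicate 4 was at 0.621 FPKM (the others 0.361 to 0.404). The PPP3CB share in gluconate replicate 2 was 38.2% (35.8% to 36.1%). The NFATC1 share of NFATC1 to NFATC4 in gluconate replicate 1 was 6.12% (7.74% to 7.85%). No cause was tested for any of these.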

How the results depend on the processing

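The count of members at an unadjusted limma p under 0.05 was 0 and stayed 0 in all alternatives but leaving out PBS replicate 3. There it was 1 of 9 (RUNX2, -0.91), beside 501 of 12458 genes tested. Leaving out 1 library each gave 0 to 1 members. The count of genes at an adjusted p under 0.05 was 0 in all. Of 151 member fold changes under alternatives, 140 kept direction and side of the threshold. Their size could still move. PPP3CB went from -0.77 to -0.39 by voom on recovered fragments of all libraries, and NFATC1 from 0.25 to 0.11 under quantile normalization. The 10 that turned were small in size. Leaving out PBS replicate 4 turned NFATC3 (-0.010), PPP3CA (0.019) and PPP3R1 (0.0016), as did voom on recovered fragments without that library (-0.0086, 0.017 and 0.0017), and median ratio scaling turned NFATC3 (-0.018). NFATC4 turned without PBS replicate 2 (0.0095), gluconate replicate 3 (0.035) and gluconate replicate 4 (0.021). Leaving out 1 library each, NFATC3 ranged from -0.010 to 0.10, NFATC4 from -0.090 to 0.035, PPP3CA from -0.18 to 0.019 and PPP3R1 from -0.26 to 0.0016. The difference in PPP3CA share ranged from 3.04 to 12.8 points leaving out 1 library each, lowest without PBS replicate 4 and highest without PBS replicate 2, where the exact permutation p was 0.0286, the smallest that design can give. The difference in NFATC3 share was 0.27 points under quantile normalization and ranged from -1.07 to 0.92 leaving out 1 library each, turning without PBS replicate 3. RCAN1 per catalytic FPKM went from 0.86 to 0.16 without PBS replicate 4. The causes were not tested. Genes at an unadjusted p under 0.05 numbered 577, 1028 with no filter, and 267 to 1216 leaving out 1 library each (267 and 288 without gluconate replicates 4 and 3, 1216 and 874 without PBS replicates 1 and 2). They split into 186 lower and 391 higher as deposited, 350 and 368 under median ratio scaling, 353 and 430 under quantile normalization, 257 and 336 by voom and 421 and 357 without PBS replicate 4, and median ratio scaling moved the median of all genes from 0.07 to 0.00.

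The deviations of same-numbered libraries had no common direction (r -0.18, 0.08, 0.17 and -0.06), and 4 of 8 correlated best with their own number. These values cannot decide whether the libraries were paired, as each r rests on 1 pair of libraries. The labels give numbers without naming pairs, and the main fit was unpaired. A replicate block gave 470 genes at an unadjusted p under 0.05 and 0 members, with PPP3CB at -0.77 and RUNX2 at -0.57.

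The depth of PBS replicate 4 was 9.95 to 11.8 times lower than that of the others, and its counts of 16 to 46 fragments for NFATC1, NFATC2, NFATC4, RCAN1 and RUNX2 limit the precision there.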
